A study of Homo sapiens with 36 samples.

Results

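Fludarabine is a purine nucleoside analogue whose handling by a cell depends on a small set of genes, and 10 of them were followed here, chosen by symbol from the 37549 named genes of the count table. They are the nucleoside transporters SLC29A1, SLC29A2 and SLC28A3, the deoxynucleoside kinases DCK and DGUOK, the nucleotidase NT5C2, the dNTP hydrolase SAMHD1, and the ribonucleotide reductase subunits RRM1, RRM2 and RRM2B. All 10 symbols were found. The libraries came from the B-cell lines MEC1, in which p53 is mutated, and JVM2 and EHEB, in which it is wild-type. Each line was exposed to the vehicle DMSO, to fludarabine at 50 µM, to ibrutinib, a BTK inhibitor, at 5 µM or to idelalisib, a PI3 kinase inhibitor, at 10 µM, with 3 libraries per group and 36 in all. MEC1 cells were exposed for 48 h, JVM2 cells for 72 h and EHEB cells for 96 h, and line and time therefore cannot be told apart.

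As background, fludarabine enters cells through the equilibrative transporters encoded by SLC29A1 and SLC29A2 and through the concentrative transporter encoded by SLC28A3. Deoxycytidine kinase, the product of DCK, adds the first phosphate, and the triphosphate formed later is taken up into DNA and also inhibits ribonucleotide reductase. DGUOK encodes a mitochondrial deoxyguanosine kinase, NT5C2 removes phosphate from purine monophosphates, and SAMHD1 hydrolyses deoxynucleoside triphosphates. Ribonucleotide reductase pairs the large subunit RRM1 with a small subunit, either RRM2, which is made in cycling cells, or RRM2B, a known target gene of p53 that serves DNA repair and quiescent cells.

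Libraries held between 26590705 and 53538925 counts, with a median of 42114145. Levels are in CPM, that is, counts relative to library size after trimmed mean of M-values (TMM) normalisation within a line. Changes are log2 fold changes from edgeR with their standard error (SE), and a gene was called when its Benjamini-Hochberg adjusted p over all tested genes was under 0.05. The paper describes its results outside the glucuronidation assays, in general terms, as coming from repeated independent experiments. It does not say for single libraries of a group whether they came from separate cultures. The p-values are therefore read as measuring the spread between the libraries of a group. B-cell markers summed to between 672.5 and 2273 CPM, against 1.46 to 34.4 for T or NK cell markers, 0.405 to 11.97 for myeloid markers and 3.71 to 49.1 for epithelial or stromal markers. Of these lists, 3 of 6 T or NK markers and 4 of 6 myeloid markers stayed below 1 CPM in every library, and none of the 8 B-cell markers did. The B-cell marker sum was itself lower with fludarabine, at 672.5 to 733.7 CPM in JVM2 against 1285 to 1308 with DMSO, at 951.5 to 1067 in EHEB against 1775 to 1846, and at 1052 to 1066 in MEC1 against 1243 to 1297. In MEC1 it was above DMSO with ibrutinib (2063 to 2273 CPM) and idelalisib (2078 to 2127 CPM). So it was in JVM2, with ibrutinib (1522 to 1531 CPM) and idelalisib (1606 to 1652 CPM). In EHEB the sum was above DMSO with idelalisib (1927 to 2011 CPM) and overlapped DMSO with ibrutinib (1781 to 1951 CPM). The part of these shifts in the results below was not tested. In bulk RNA, fewer cells of a type and less RNA per cell cannot be told apart. Kinase inhibitor libraries carry a separate run of library numbers that holds no DMSO library, so a difference between the runs and an effect of these drugs cannot be told apart.

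The stretches of 250 bases upstream of the start sites of RRM2 and RRM1 are shown because these subunit genes fell together with idelalisib in every line and with fludarabine in JVM2. They were taken from RefSeq (GRCh38.p14, plus strand for both), at chr2:10122489-10122738 and chr11:4094435-4094684. Capitals mark CCAAT, searched on both strands.
RRM2: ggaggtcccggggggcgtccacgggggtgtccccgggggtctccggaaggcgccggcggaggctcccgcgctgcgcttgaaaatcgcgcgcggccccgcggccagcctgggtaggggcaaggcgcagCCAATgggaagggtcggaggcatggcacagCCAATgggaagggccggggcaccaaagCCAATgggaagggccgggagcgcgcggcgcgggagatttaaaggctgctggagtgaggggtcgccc
RRM1: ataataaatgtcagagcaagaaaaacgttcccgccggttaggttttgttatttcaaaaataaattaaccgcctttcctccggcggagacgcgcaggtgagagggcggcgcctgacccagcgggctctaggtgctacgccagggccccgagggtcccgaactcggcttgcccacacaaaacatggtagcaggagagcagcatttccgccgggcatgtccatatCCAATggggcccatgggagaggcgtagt
The RRM2 window shown holds 3 copies of CCAAT, with first bases at −123, −93 and −66 relative to the start site, and the RRM1 window holds 1 copy at −28. A second start site of RRM2 in RefSeq has its window at chr2:10122318-10122567, with 1 copy at −249. At least 1 copy lies in 32.01% of the 35116 upstream windows of this length, and at least 3 copies in 2.93%. The letters TTTCCCGC, TTTGGCGC, TTTCGCGC and TTTGCCGC, which are forms of the E2F motif, occur in 2.79% of all windows and in none of these RRM2 and RRM1 windows. Of the 10 genes, 7 had a window examined. RRM2B was left out, and no window was available for SLC29A2 and SLC28A3. SAMHD1, which rose with fludarabine, has 2 copies of CCAAT in its window (at −49 and −38), a number that 9.53% of all windows reach or exceed, and DGUOK has 1 (at −231), while DCK, SLC29A1 and NT5C2 have none. These matches are descriptions of letters, not of bound sites.

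In DMSO-treated cells the order of the levels was set per kilobase of the canonical transcript. In MEC1, RRM1 stood highest at 134.9 ± 0.968 CPM per kb (SD, n = 3). It was followed by RRM2 at 91.7 ± 34.6, DCK at 59.2 ± 2.99, DGUOK at 44.8 ± 1.01, SLC29A1 at 32.03 ± 2.07, RRM2B at 11.6 ± 0.562, NT5C2 at 8.38 ± 0.606, SAMHD1 at 4.89 ± 1.01, SLC29A2 at 3.28 ± 0.325 and SLC28A3 at 0.204 ± 0.0540 CPM per kb. RRM2 and DCK, neighbours in that order, lay closer together than the SD of RRM2. In JVM2 the first 4 places went to RRM1 at 38.6 ± 1.58, RRM2B at 36.1 ± 1.69, DGUOK at 35.3 ± 3.65 and RRM2 at 33.2 ± 3.84 CPM per kb, of which the first lay above the second by more than the SD of either, and the last 3 differed from one place to the next by less than the SD of one of the neighbours. Below them in JVM2 came SLC29A1 at 21.5 ± 1.41, DCK at 16.1 ± 0.680, NT5C2 at 7.46 ± 1.70, SAMHD1 at 3.55 ± 0.995 and SLC29A2 at 0.850 ± 0.108 CPM per kb, and SLC28A3 had no count. In EHEB, RRM2B was highest at 38.8 ± 1.26, ahead of DGUOK at 32.5 ± 0.758 and RRM1 at 30.4 ± 0.507 CPM per kb. SLC29A1 at 16.2 ± 0.820, RRM2 at 15.7 ± 1.97 and DCK at 14.1 ± 0.166 followed in EHEB within the SD of RRM2, and then NT5C2 at 9.77 ± 0.174, SAMHD1 at 7.01 ± 0.660, SLC29A2 at 1.46 ± 0.311 and SLC28A3 at 0.394 ± 0.0758 CPM per kb.

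Between lines, the DMSO libraries were compared in a fit of their own. In JVM2 against MEC1, 8 of the 10 genes were called, where 63.8% of all tested genes were, and in EHEB against MEC1 9 were, against 67.4%. For EHEB against JVM2 the count was 8, against 59.6%. Both counts that involve JVM2 include SLC28A3, which had no count in its DMSO libraries. The kinase gene DCK was lower than in MEC1 by a log2 fold change of −1.77 (SE 0.06, adjusted p = 1.82e-08) in JVM2 and −1.963 (SE 0.06, adjusted p = 9.53e-09) in EHEB. The subunit genes RRM1 and RRM2 were also lower than in MEC1, by −1.70 and −1.36 in JVM2 and by −2.05 and −2.44 in EHEB. RRM2B was higher than in MEC1, at a log2 fold change of 1.75 for JVM2 (adjusted p = 1.89e-08) and 1.85 for EHEB (adjusted p = 1.28e-08). The transporter SLC29A2 was lower in JVM2 by −1.84 and in EHEB by −1.06, and SLC29A1 by −0.47 and −0.88. SAMHD1 was highest in EHEB, at 0.98 above JVM2 (adjusted p = 0.00422) and 0.62 above MEC1 (adjusted p = 0.0306). The latter call was lost without DMSO library EHEB_133, EHEB_134 or MEC1_37 (adjusted p = 0.0888, 0.0617 and 0.0984) and under library size scaling (0.0856).

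With fludarabine against DMSO, 5 of the 10 genes were called for MEC1, with 3 higher and 2 lower. JVM2 had 7, with 3 higher and 4 lower, and EHEB had 4, with 3 higher and 1 lower. The EHEB count was 2 without a filter on low counts and 2 without EHEB_135 or EHEB_142. SLC28A3 passed the filter in JVM2 only through its fludarabine libraries, and its inclusion among the genes called higher there supports nothing. Over all tested genes, 43.9% were called for MEC1 (21.2% higher, 22.7% lower), 47.2% for JVM2 (23.9% higher, 23.3% lower) and 37.5% for EHEB (18.4% higher, 19.2% lower). For MEC1 the share of these 10 genes was thus near that of all genes, and so was the EHEB share at its reported count of 4. Their median log2 fold change was −0.05 in MEC1, 0.02 in JVM2 and 0.19 in EHEB, beside 0.06, 0.06 and 0.02 over all genes. With library size scaling instead of TMM, the median of all genes shifted upward by 0.249, 0.199 and 0.107 (MEC1, JVM2 and EHEB). The share of calls that were higher was then 74.1% rather than 48.4% for MEC1, 69.1% rather than 50.6% for JVM2 and 61.8% rather than 48.9% for EHEB. Small changes below are read against those shifts.

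**Figure D1:**
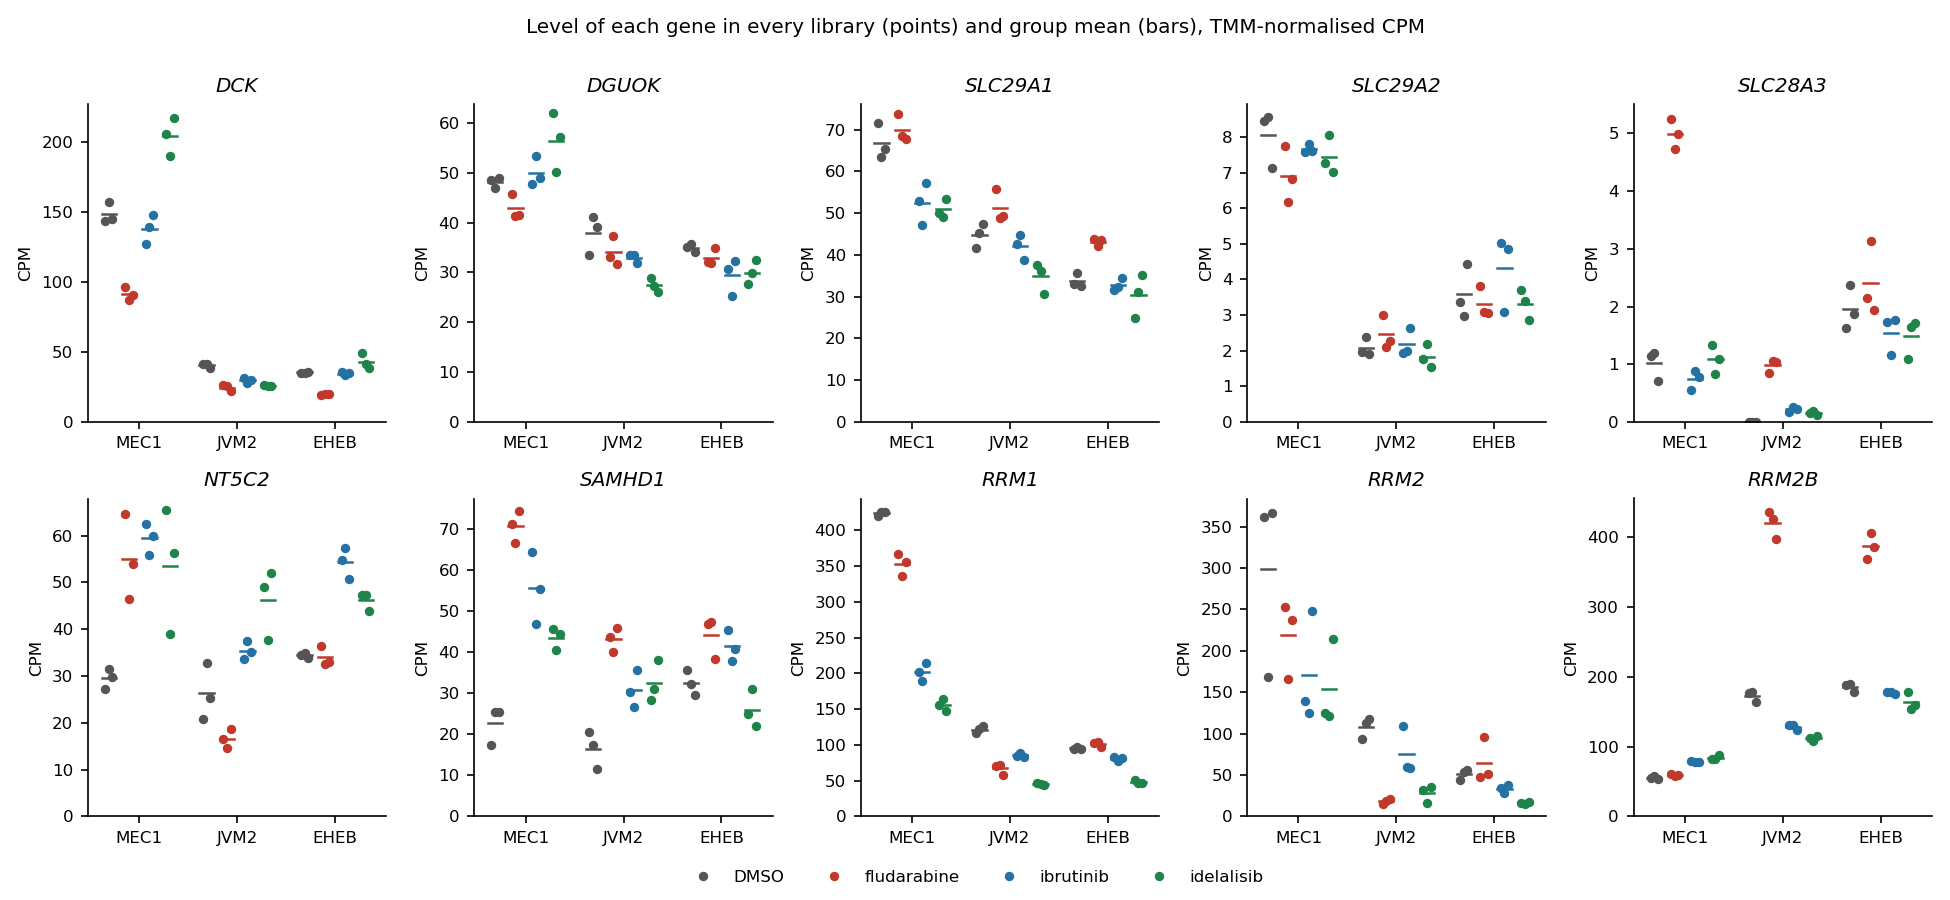
TMM-normalised CPM (linear axis from 0) of each of the 10 genes in every library, by cell line and treatment, with 3 points per group and a bar at the group mean. DCK is lower with fludarabine than with DMSO in all 3 lines, and RRM2B rises to between 367.9 and 435.7 CPM in the fludarabine libraries of JVM2 and EHEB while those of MEC1 stay at 57.4 to 61.4 CPM.

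The main uptake gene by level, SLC29A1, changed little with fludarabine against DMSO. In EHEB it read 33.1, 35.7 and 32.5 CPM with DMSO and 43.8, 42.2 and 43.5 with fludarabine. These groups did not overlap, and the log2 fold change was 0.35 (SE 0.11, adjusted p = 0.0214). That call was lost without a filter on low counts (adjusted p = 0.0590) and without EHEB_133, EHEB_135, EHEB_142 or EHEB_144 (0.0697, 0.0767, 0.0607 and 0.0642). In MEC1 and JVM2 the log2 fold changes of 0.07 and 0.19 were not called, and under library size scaling they became 0.32 (adjusted p = 0.00678) and 0.39 (adjusted p = 0.00208). The stricter filter, a mean of at least 1 CPM, gave 0.24 (adjusted p = 0.0385) in JVM2. SLC29A2, the other equilibrative transporter, was not called in any line, at −0.22 (SE 0.12), 0.24 (SE 0.21) and −0.12 (SE 0.22) in MEC1, JVM2 and EHEB, and its library counts ranged from 67 to 389.

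The concentrative transporter SLC28A3 had the largest change among the 10 genes in MEC1, from a low level. Its libraries read 1.14, 1.19 and 0.704 CPM with DMSO and 5.25, 4.72 and 4.998 with fludarabine, without overlap, and it rose by a log2 fold change of 2.29 (SE 0.26, adjusted p = 3.70e-05). In JVM2 all 3 DMSO libraries had 0 counts, while the fludarabine libraries had 38, 49 and 45 counts, or 0.851, 1.06 and 1.05 CPM. Against a floor of 3 counts over the DMSO group, the level with fludarabine was at least 39.6-fold higher. This is given as a description with no test, because the gene entered the JVM2 fit through the libraries in which it is high. EHEB showed 1.63, 2.37 and 1.87 CPM with DMSO and 2.14, 3.14 and 1.93 with fludarabine, overlapping groups with a log2 fold change of 0.30 (SE 0.27, adjusted p = 0.431). In fludarabine-treated MEC1 cells markers of other lineages were higher too: the summed level was 16.6 to 18.6 CPM against 10.8 to 11.3 with DMSO for T or NK markers, 22.6 to 23.5 against 4.36 to 6.20 for epithelial or stromal markers and 4.43 to 6.09 against 0.441 to 0.924 for myeloid markers. Tested markers called higher there were 2 of 3, 2 of 4 and 1 of 1, with none lower, beside 21.2% of all genes higher and 22.7% lower. In JVM2, 0 of 1, 0 of 3 and 0 of 2 were higher and 1, 3 and 0 lower, beside 23.9% and 23.3% of all genes. In EHEB, 1 of 4, 0 of 3 and 0 of 2 were higher and 2, 1 and 0 lower, beside 18.4% and 19.2%. The part of these markers in the SLC28A3 result was not tested. SLC28A3 also overlaps the antisense gene SLC28A3-AS1, and without a stated strand their reads cannot be told apart.

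DCK, the activating kinase, fell with fludarabine in every line. MEC1 read 143.6, 157.0 and 144.6 CPM with DMSO and 96.6, 87.3 and 90.5 with fludarabine. In JVM2 the values were 41.1, 41.6 and 38.4 CPM against 26.1, 25.3 and 21.8, and in EHEB 35.3, 35.1 and 35.9 against 19.3, 19.9 and 20.2. The groups did not overlap in any line. The log2 fold change was −0.70 for MEC1 (SE 0.07, adjusted p = 2.22e-05), −0.73 for JVM2 (SE 0.08, adjusted p = 1.48e-05) and −0.84 for EHEB (SE 0.08, adjusted p = 1.36e-05). The differences of this change between lines were −0.06 (SE 0.09, adjusted p = 0.745) for JVM2 against MEC1, −0.21 (SE 0.09, adjusted p = 0.104) for EHEB against MEC1 and −0.15 (SE 0.09, adjusted p = 0.281) for EHEB against JVM2. Under library size scaling the second became −0.28 (adjusted p = 0.0395). DCK lies on chromosome 4 and overlaps MOB1B on the same strand, so reads of the shared stretch cannot be assigned with certainty.

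DGUOK, the mitochondrial kinase, was not called with fludarabine against DMSO in any line. Its log2 fold change was −0.17 (SE 0.08, adjusted p = 0.127) in MEC1, −0.15 (SE 0.09, adjusted p = 0.164) in JVM2 and −0.08 (SE 0.09, adjusted p = 0.526) in EHEB. Under library size scaling all 3 values turned positive, at 0.08, 0.04 and 0.02. Without JVM2_85 the JVM2 value was −0.24 (adjusted p = 0.0362). Fludarabine against ibrutinib gave a DGUOK call in MEC1 alone, at −0.22 (adjusted p = 0.0423). That call was lost under library size scaling (0.655), without a filter (0.105), in the joint fit (0.199) and without MEC1_47, MEC1_48, MEC1_185 or MEC1_186 (0.0637 to 0.134). Against idelalisib it was −0.40 (0.00164) in MEC1 and 0.31 (0.0129) in JVM2. The former was lost under library size scaling (0.634) and the latter without JVM2_95 or JVM2_240 (0.0647 and 0.0575).

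NT5C2, which can undo the first phosphorylation of purine nucleosides, moved in opposite directions in MEC1 and JVM2. In MEC1 it read 27.3, 31.5 and 29.8 CPM with DMSO and 64.6, 46.3 and 53.9 with fludarabine, a rise of 0.90 (SE 0.17, adjusted p = 0.00131). In JVM2 it read 20.9, 32.7 and 25.3 CPM with DMSO and 16.5, 14.5 and 18.6 with fludarabine, and the log2 fold change was −0.67 (SE 0.17, adjusted p = 0.00658). Neither pair of groups overlapped. In EHEB the libraries lay at 34.6, 34.95 and 33.8 CPM and at 36.5, 32.5 and 32.9, with a change of −0.02 (SE 0.07, adjusted p = 0.859). NT5C2 overlaps CNNM2, INA, RPEL1 and 3 pseudogenes, and the counting is not stated to use strand.

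SAMHD1, the dNTP hydrolase, rose in every line. With DMSO it read 17.3, 25.4 and 25.5 CPM in MEC1, against 71.4, 66.6 and 74.3 with fludarabine. In JVM2 the values were 20.5, 17.5 and 11.4 CPM against 43.7, 40.2 and 45.9. In EHEB they were 35.8, 32.3 and 29.6 against 47.01, 47.3 and 38.3, and the groups did not overlap in any of the 3 lines. The log2 fold change was 1.64 (SE 0.15, adjusted p = 7.82e-06) in MEC1, 1.39 (SE 0.20, adjusted p = 0.000150) in JVM2 and 0.44 (SE 0.13, adjusted p = 0.0242) in EHEB. The call in EHEB was lost without a filter (adjusted p = 0.0509), in the joint fit of 36 libraries (0.0599), and without EHEB_134, EHEB_135, EHEB_142 or EHEB_143 (0.0681, 0.0924, 0.0799 and 0.0871). Its 3′ end overlaps TLDC2 on the opposite strand.

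RRM1, the large reductase subunit, fell with fludarabine in JVM2 and MEC1. JVM2 libraries read 116, 122 and 126 CPM with DMSO and 71.1, 72.2 and 58.3 with fludarabine, a log2 fold change of −0.85 (SE 0.08, adjusted p = 5.03e-06). In MEC1 they read 420.2, 425.6 and 425.4 CPM against 367.6, 336.9 and 356.1, also without overlap, at −0.26 (SE 0.06, adjusted p = 0.00537). The MEC1 value was −0.01 (adjusted p = 0.914) under library size scaling. In EHEB, 94.8, 97.3 and 94.4 CPM with DMSO compared with 102, 104 and 97.3 with fludarabine, at 0.08 (SE 0.06, adjusted p = 0.288), and library size scaling gave 0.19 (adjusted p = 0.0162).

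RRM2, the small subunit of cycling cells, was called in JVM2 alone. There it went from 94.1, 113 and 118 CPM with DMSO to 15.4, 19.1 and 21.2 with fludarabine, far outside the DMSO range, and fell by a log2 fold change of −2.54 (SE 0.31, adjusted p = 4.91e-05). MEC1 read 361.3, 169 and 366.5 CPM against 252.8, 166 and 237.6, overlapping groups at −0.45 (SE 0.35, adjusted p = 0.324). In EHEB, 43.99, 53.3 and 56.3 CPM with DMSO stood beside 48.2, 96.1 and 50.8 with fludarabine, at 0.35 (SE 0.23, adjusted p = 0.275). Without EHEB_143, the library at 96.1 CPM, the EHEB value was −0.06 (adjusted p = 0.809). RRM2 was the most variable of the 10 genes between libraries of a group, with a median coefficient of variation of 27.8% and a maximum of 41.4%, while that of RRM1 had a median of 3.96%. MEC1_38 lay 0.74 below its group mean for RRM2 on the log2 scale, and EHEB_143 lay 0.63 above. In the same libraries RRM1 deviated by 0.01 and 0.04, and the median of the S phase list by −0.0019 and −0.03. RRM2 has processed pseudogenes with which it could share reads, and the 3 in the table held at most 31 counts in any library.

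RRM2B, the p53-regulated small subunit, rose in the lines with wild-type p53. JVM2 read 176, 178 and 163 CPM with DMSO and 435.7, 426.1 and 396.4 with fludarabine, and EHEB 188, 189 and 178 against 367.9, 406.2 and 384.9. The log2 fold change was 1.28 (SE 0.05, adjusted p = 8.79e-09) in JVM2 and 1.06 (SE 0.06, adjusted p = 1.71e-07) in EHEB, with no overlap. In MEC1 the libraries lay at 54.5, 58.2 and 52.98 CPM with DMSO and at 61.4, 57.4 and 59.3 with fludarabine, at 0.10 (SE 0.06, adjusted p = 0.171). The MEC1 value passed the threshold under library size scaling, at 0.35 (adjusted p = 0.000844), and with the stricter filter, at 0.15 (adjusted p = 0.0299). The rise was greater than in MEC1 by 1.15 (SE 0.08, adjusted p = 3.10e-08) in JVM2 and by 0.89 (SE 0.08, adjusted p = 5.18e-07) in EHEB. Line, exposure time and p53 status cannot be told apart in these comparisons.

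**Figure D2:**
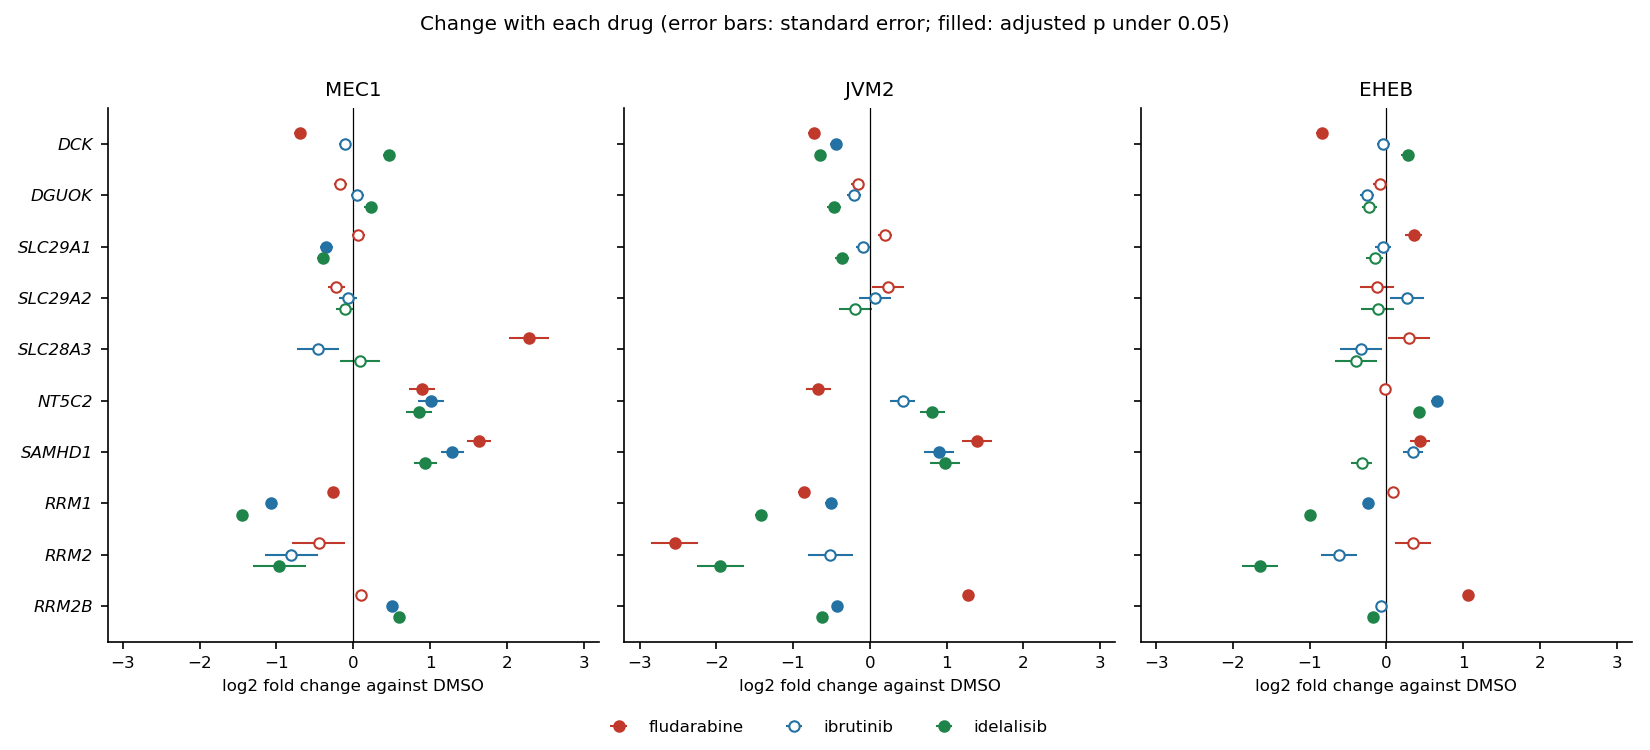
Log2 fold change against DMSO (horizontal axis, error bars are standard errors) of each gene with fludarabine, ibrutinib and idelalisib in MEC1, JVM2 and EHEB; filled points have an adjusted p under 0.05, and SLC28A3 in JVM2 is left out because its DMSO libraries had no counts. Fludarabine points for DCK lie between −0.84 and −0.70 in the 3 lines, whereas those for RRM2 range from −2.54 in JVM2 to 0.35 in EHEB.

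The balance of some pairs of genes was described as a ratio of CPM per kb within each library. For RRM2 to RRM2B in JVM2, the DMSO libraries held ratios of 0.783, 0.929 and 1.06 and the fludarabine libraries 0.0518, 0.0656 and 0.0785. The geometric mean thus went from 0.917 to 0.0644. EHEB went from 0.403 to 0.234 and MEC1 from 7.48 to 5.31, and in each of these lines the ranges overlapped. For DCK to SAMHD1, kinase over hydrolase, the geometric mean with DMSO and with fludarabine was 12.3 and 2.40 for MEC1, 4.68 and 1.05 for JVM2, and 2.02 and 0.834 for EHEB. The ranges with DMSO and fludarabine were separate in all 3 lines, at 10.5 to 15.4 against 2.26 to 2.51, 3.72 to 6.24 against 0.882 to 1.17, and 1.83 to 2.25 against 0.761 to 0.978. With ibrutinib the DCK to SAMHD1 ratio had geometric means of 4.63, 1.79 and 1.55 in MEC1, JVM2 and EHEB, and with idelalisib of 8.69, 1.49 and 3.08.

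**Figure D3:**
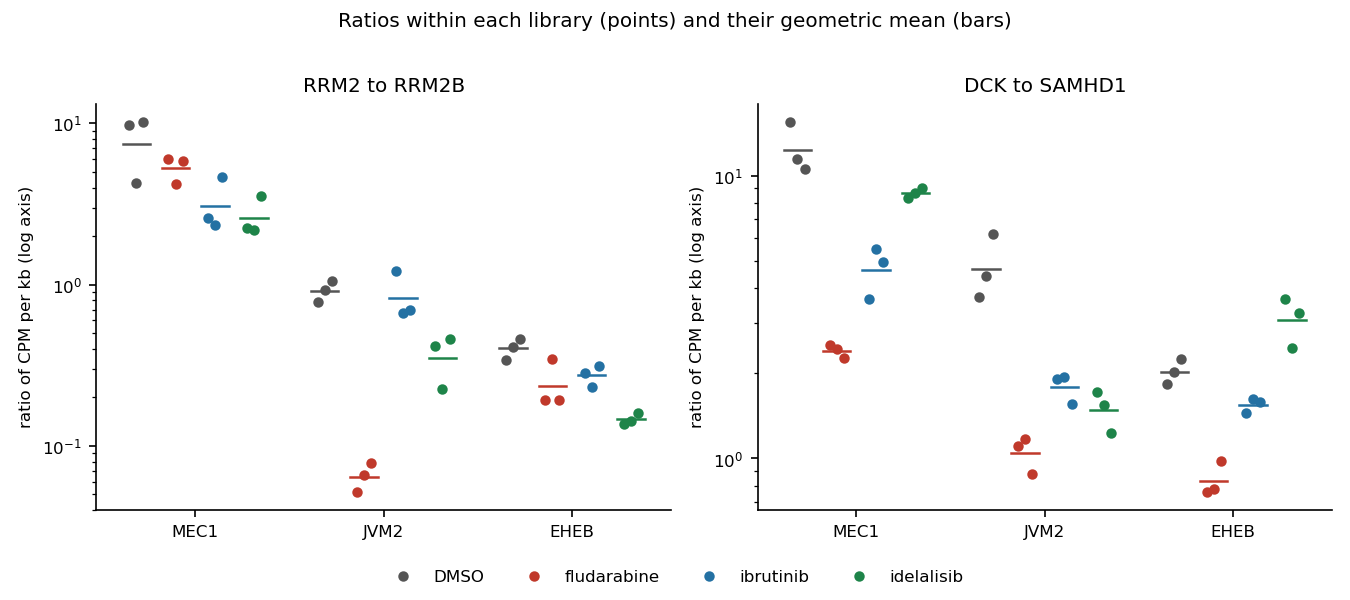
Ratio of CPM per kb (log axis) of RRM2 to RRM2B and of DCK to SAMHD1 in every library by line and treatment, with a bar at the geometric mean of the 3 libraries. The lowest RRM2 to RRM2B ratios, 0.0518 to 0.0785, are those of fludarabine-treated JVM2 cells, and the DCK to SAMHD1 ratios with fludarabine lie below those with the other treatments in every line.

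Set against ibrutinib, fludarabine gave calls for 6, 7 and 6 of the 10 genes (MEC1, JVM2 and EHEB), where 51.4%, 42.7% and 33.3% of all genes were called. Set against idelalisib, it gave 7, 6 and 7, beside 56.2%, 41.1% and 42.7%. SLC28A3 is counted in both JVM2 numbers. Under library size scaling the share of higher calls against ibrutinib was 63.7% rather than 50.5% for MEC1 and 62.55% rather than 49.1% for JVM2, and against idelalisib 72.1% rather than 52.2% and 61.7% rather than 49.7%. DCK was lower with fludarabine than with ibrutinib by −0.59 (SE 0.07, adjusted p = 4.85e-05) in MEC1, −0.28 (SE 0.08, adjusted p = 0.0108) in JVM2 and −0.80 (SE 0.08, adjusted p = 2.17e-05) in EHEB, and the JVM2 call was lost under library size scaling (adjusted p = 0.0822). Against idelalisib it was lower by −1.16 in MEC1 and −1.12 in EHEB, and −0.08 in JVM2 was not called (adjusted p = 0.430). RRM2B was higher with fludarabine than with ibrutinib and idelalisib by 1.71 and 1.91 in JVM2 and by 1.13 and 1.24 in EHEB. In MEC1, by contrast, it was lower, at −0.39 (adjusted p = 0.000154) and −0.50 (adjusted p = 1.94e-05), and the second was −0.15 (adjusted p = 0.0606) under library size scaling. NT5C2 was lower than with ibrutinib and idelalisib by −1.10 and −1.48 in JVM2 and by −0.68 and −0.44 in EHEB. In MEC1 its values of −0.11 and 0.04 were not called.

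SAMHD1 was higher with fludarabine than with idelalisib by 0.70 (SE 0.15, adjusted p = 0.00182) in MEC1 and 0.76 (SE 0.14, adjusted p = 0.000847) in EHEB, and the JVM2 value of 0.41 (adjusted p = 0.114) was called only in the fit of 6 libraries (0.0345). Against ibrutinib it was at 0.35 (adjusted p = 0.0708), 0.49 (adjusted p = 0.0633) and 0.09 (adjusted p = 0.654) in MEC1, JVM2 and EHEB, and therefore not called. DESeq2, limma-voom, library size scaling and the joint fit of 36 libraries called the MEC1 value (adjusted p = 0.0407, 0.0437, 0.0126 and 0.0497) and the JVM2 value (0.0305, 0.0325, 0.0343 and 0.0378). The JVM2 value was also called with the stricter filter (0.0443) and in the fit of 6 libraries (0.0142), and the MEC1 value without MEC1_184 (0.0329). RRM1 was higher with fludarabine than with idelalisib in every line, by 1.19, 0.56 and 1.08. Compared with ibrutinib it was higher in MEC1 (0.81) and EHEB (0.33) and lower in JVM2 (−0.35). For RRM2 the value against ibrutinib was −2.03 for JVM2 (adjusted p = 0.000266) and 0.96 for EHEB (adjusted p = 0.00773), and against idelalisib it was 1.99 (adjusted p = 4.68e-05) in EHEB. The JVM2 value against idelalisib was −0.60 (adjusted p = 0.135), and −0.88 (adjusted p = 0.0214) without JVM2_239. In MEC1 the RRM2 values against ibrutinib and idelalisib were 0.35 (adjusted p = 0.429) and 0.51 (adjusted p = 0.238), and library size scaling took the latter to 0.87 (adjusted p = 0.0441). SLC28A3 was higher than with ibrutinib and idelalisib by 2.75 and 2.20 in MEC1. In EHEB the values were 0.63 (adjusted p = 0.104) and 0.69 (adjusted p = 0.0642), the latter called in the joint fit of 36 libraries (0.0477), and JVM2 is given by its counts alone. SLC29A1 was higher than with idelalisib by 0.46, 0.56 and 0.51 in MEC1, JVM2 and EHEB. It was also higher than with ibrutinib, by 0.42, 0.28 and 0.40 (adjusted p = 0.00114, 0.0283 and 0.0136). The JVM2 call against ibrutinib was lost without JVM2_94, JVM2_96, JVM2_232 or JVM2_234 (adjusted p = 0.148, 0.0540, 0.0648 and 0.144). That of EHEB was lost without EHEB_280 or EHEB_281 (adjusted p = 0.0511 and 0.0518).

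The kinase inhibitors had their own pattern against DMSO, in libraries of a separate run of numbers and against the same DMSO libraries as fludarabine. With ibrutinib MEC1 had 5 of the 10 genes called, 3 higher and 2 lower, beside 47.6% of all genes (23.7% higher, 23.9% lower). JVM2 had 5, 2 higher and 3 lower, beside 29.4% (14.5% higher, 15% lower), and EHEB had 2, 1 higher and 1 lower, beside 19.7% (8.5% higher, 11.2% lower). The EHEB count was 4 in the fit of 6 libraries and 1 without EHEB_134 or EHEB_281. Idelalisib gave MEC1 8 calls, 5 higher and 3 lower, beside 55% of all genes (27.6% higher, 27.4% lower). JVM2 then had 9, 3 higher and 6 lower, beside 44.2% (21.6% higher, 22.6% lower), and EHEB had 5, 2 higher and 3 lower, beside 33.3% (15.1% higher, 18.2% lower). This EHEB count was 3 in the fit of 6 libraries and 3 without EHEB_133 or EHEB_134. SLC28A3 is among the JVM2 genes counted as higher with both drugs. Under library size scaling the share of higher calls was 62.2% rather than 49.1% with ibrutinib in JVM2, and 65.4% rather than 43.1% for the same drug in EHEB. With idelalisib these shares were 59.5% rather than 48.8% for JVM2 and 59.6% rather than 45.3% for EHEB. For MEC1 the share was 56.8% rather than 49.7% with ibrutinib, but 43.6% rather than 50.2% with idelalisib.

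RRM1 fell with idelalisib by −1.45 (SE 0.06, adjusted p = 3.07e-08) in MEC1, −1.41 (SE 0.08, adjusted p = 2.14e-07) in JVM2 and −0.99 (SE 0.06, adjusted p = 4.56e-07) in EHEB. Its levels with this drug were 156, 164 and 147 CPM in MEC1, 47.3, 45.1 and 44.5 in JVM2 and 51.5, 46.3 and 46.3 in EHEB, all below the DMSO libraries of the line. Ibrutinib gave −1.07, −0.51 and −0.25, and the last call was lost without EHEB_134 or EHEB_281 (adjusted p = 0.0545 and 0.0572) and under library size scaling (0.0803). RRM2 fell with idelalisib as well, by −0.96 for MEC1 (adjusted p = 0.0369), −1.95 for JVM2 (adjusted p = 0.000358) and −1.65 for EHEB (adjusted p = 0.000312). The MEC1 call was lost without MEC1_37, MEC1_39, MEC1_190 or MEC1_191 (adjusted p = 0.114, 0.116, 0.114 and 0.115). With ibrutinib RRM2 was at −0.80, −0.51 and −0.62 in MEC1, JVM2 and EHEB and not called (adjusted p = 0.0798, 0.222 and 0.0885). The MEC1 value passed the threshold in the joint fit (0.0393) and without MEC1_38 or MEC1_186 (0.0198 and 0.0221), that of JVM2 without JVM2_232 (0.0407), and that of EHEB with DESeq2 (0.0336) and in the fit of 6 libraries (0.0246). NT5C2 rose with ibrutinib by 1.01 in MEC1 and 0.66 in EHEB, while 0.43 in JVM2 was not called (adjusted p = 0.0766) except with DESeq2 (0.0472), library size scaling (0.0434), the joint fit (0.0366) and without JVM2_86 (0.0168). It also rose with idelalisib by 0.86, 0.81 and 0.42 in MEC1, JVM2 and EHEB. SAMHD1 rose with ibrutinib and idelalisib in MEC1 (1.29 and 0.94) and JVM2 (0.91 and 0.98). In EHEB its values were not called, at 0.35 with ibrutinib (adjusted p = 0.0978) and, in the other direction, −0.32 with idelalisib (adjusted p = 0.0935). The former passed the threshold under library size scaling (0.0371) and in the fit of 6 libraries (0.0498), and the latter without EHEB_287 (0.0200). SLC28A3 in JVM2 had 9 counts in each ibrutinib library and 6, 8 and 6 in the idelalisib libraries, at least 8.79-fold and 6.28-fold above the DMSO floor. SLC29A1 fell with ibrutinib in MEC1 by −0.35 (adjusted p = 0.00414). With idelalisib it fell by −0.39 in MEC1 (adjusted p = 0.00166) and −0.36 in JVM2 (adjusted p = 0.00843). Its other values with these drugs were not called, at −0.09 with ibrutinib in JVM2 and at −0.04 and −0.15 with ibrutinib and idelalisib in EHEB.

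DCK did not share a direction across lines with idelalisib. It read 205, 190 and 217 CPM in MEC1, above every DMSO library, and rose by 0.46 (SE 0.07, adjusted p = 0.000293). In JVM2 it read 26.3, 25.8 and 25.4 CPM and fell by −0.64 (SE 0.08, adjusted p = 4.86e-05). In EHEB it rose by 0.28 (adjusted p = 0.0233), a call that was lost without EHEB_133, EHEB_134 or EHEB_286 (adjusted p = 0.0559, 0.0593 and 0.0615) and in a fit of only the 6 libraries compared (0.0679). With ibrutinib DCK fell in JVM2 by −0.45 (adjusted p = 0.00125), and −0.11 in MEC1 and −0.04 in EHEB were not called (adjusted p = 0.257 and 0.794). DGUOK with idelalisib was at 0.23 in MEC1 (adjusted p = 0.0356) and −0.47 in JVM2 (adjusted p = 0.00114). The MEC1 call was lost without MEC1_37, MEC1_38, MEC1_39, MEC1_190 or MEC1_192 (0.0689 to 0.181). It was also lost under library size scaling (0.179), without a filter (0.0763), in the fit of 6 libraries (0.0614) and in the joint fit (0.131). DGUOK was not called with idelalisib in EHEB or with ibrutinib in any line. RRM2B rose with ibrutinib and idelalisib in MEC1 (0.50 and 0.60) and fell in JVM2 (−0.43 and −0.63). In EHEB it was at −0.07 with ibrutinib (adjusted p = 0.484). Its fall of −0.18 with idelalisib in EHEB (adjusted p = 0.0379) was lost without EHEB_133, EHEB_134, EHEB_135, EHEB_287 or EHEB_288 (adjusted p = 0.130, 0.148, 0.0522, 0.139 and 0.149), under library size scaling (0.381), without a filter (0.0685), with the stricter filter (0.0548) and in the fit of 6 libraries (0.0766).

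The change with fludarabine was compared between lines with an interaction term of line and treatment over the 18 DMSO and fludarabine libraries. It was called for 5 of the 10 genes between JVM2 and MEC1, beside 25.2% of all genes, for 5 between EHEB and MEC1, beside 29.4%, and for 6 between EHEB and JVM2, beside 22.2%. Both counts with JVM2 include SLC28A3, whose change there rests on DMSO libraries with no counts and is not read as a difference. Among the others, the change of RRM2 was lower in JVM2 than in MEC1 by −2.12 (SE 0.41, adjusted p = 0.00123) and that of RRM1 by −0.62 (SE 0.09, adjusted p = 9.92e-05). NT5C2 differed between these lines by −1.59 (SE 0.21, adjusted p = 3.65e-05). The rise of SAMHD1 in EHEB was smaller than in MEC1 by −1.27 (SE 0.25, adjusted p = 0.00119) and smaller than in JVM2 by −0.995 (SE 0.25, adjusted p = 0.00930), and −0.27 between JVM2 and MEC1 was not called (adjusted p = 0.506). For RRM2 the difference between EHEB and MEC1 was 0.73 (adjusted p = 0.212), and without MEC1_38 it was 1.01 (adjusted p = 0.0427).

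Neighbouring genes of the pathway were counted from lists written down for this purpose, to be read beside the shares of all genes called higher and lower with fludarabine, 21.2% and 22.7% in MEC1, 23.9% and 23.3% in JVM2 and 18.4% and 19.2% in EHEB. These lists, and the p53, S phase and interferon lists below, were chosen with earlier results of these data known, so their counts are a description. Among 24 to 25 tested salvage and dNTP enzymes, those higher and lower with fludarabine numbered 1 and 9 for MEC1, 7 and 10 for JVM2, and 5 and 9 for EHEB, with median log2 fold changes of −0.21, −0.34 and −0.18. The adenosine kinase gene ADK fell by −0.61, −0.56 and −0.81 in MEC1, JVM2 and EHEB, and the nucleoside diphosphate kinase gene NME2 by −0.99, −1.92 and −0.93. CMPK2, a mitochondrial nucleotide kinase, rose in MEC1 (0.97) and JVM2 (2.07) and fell in EHEB (−0.49). Of the other nucleoside transporters, 2 or 3 were tested per line, and SLC29A3, which resides in intracellular membranes, was the only one called with fludarabine, at 1.48, 0.68 and 0.50. The other 5′-nucleotidases, 6 tested per line, had 0 higher and 1 lower for MEC1, 3 and 1 for JVM2, and 0 and 2 for EHEB. Of 12 genes for DNA polymerases, primase and ligase, 3 were higher and 5 lower for MEC1, 2 and 8 for JVM2, and 3 and 3 for EHEB. POLB, the polymerase of base excision repair, rose by 0.53, 0.65 and 0.41, and POLA1, the catalytic subunit of polymerase alpha, fell by −0.30, −0.39 and −0.32. The primase subunit gene PRIM2 fell by −0.35, −0.97 and −0.62.

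Of the p53 target genes, a list that leaves out RRM2B, 12 of 19 were higher and 2 lower with fludarabine for MEC1, 18 of 20 higher in JVM2 and 16 of 20 higher in EHEB, with none lower in JVM2 or EHEB. Over all genes 21.2%, 23.9% and 18.4% were higher and 22.7%, 23.3% and 19.2% lower. Median log2 fold changes were 0.45, 1.15 and 1.23, beside 0.10, 1.28 and 1.06 for RRM2B. Among those called in every line, GDF15 rose by 2.40, 2.34 and 4.61, SESN1 by 1.49, 1.88 and 1.35 and PHLDA3 by 2.58, 1.25 and 1.40. With ibrutinib 6, 0 and 2 targets of this list were higher and 6, 11 and 5 lower in MEC1, JVM2 and EHEB, and with idelalisib 5, 1 and 2 were higher and 9, 14 and 8 lower. All genes gave 23.7%, 14.5% and 8.5% higher and 23.9%, 15% and 11.2% lower with ibrutinib, and 27.6%, 21.6% and 15.1% higher and 27.4%, 22.6% and 18.2% lower with idelalisib.

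The list of 18 S phase genes, which leaves out the reductase subunits, had 5 members higher and 3 lower with fludarabine for MEC1, 1 higher and 14 lower for JVM2, and 1 higher and 9 lower for EHEB. Beside the shares of all genes, 21.2% higher and 22.7% lower in MEC1, 23.9% and 23.3% in JVM2 and 18.4% and 19.2% in EHEB, the MEC1 counts were near the background. Its median log2 fold change was 0.07 in MEC1, −0.90 in JVM2 and −0.22 in EHEB, values to be read against the scaling shifts given above, beside −0.45, −2.54 and 0.35 for RRM2 and −0.26, −0.85 and 0.08 for RRM1. The member called higher in JVM2 and EHEB was PCNA, at 2.29 and 1.76, which is also a known p53 target and was singled out after its values were seen. GINS2, a part of the replicative helicase, fell by −0.80, −1.71 and −0.51 in MEC1, JVM2 and EHEB, and the helicase subunit gene MCM6 by −0.20, −0.40 and −0.45. UHRF1, which helps to maintain DNA methylation, rose by 0.52 in MEC1 and fell by −2.17 in JVM2 and −0.67 in EHEB. With idelalisib 14, 13 and 18 S phase genes were lower and 0, 2 and 0 higher in MEC1, JVM2 and EHEB, and with ibrutinib 17, 3 and 2 were lower and 0, 9 and 0 higher. The shares of all genes that were lower were 27.4%, 22.6% and 18.2% with idelalisib and 23.9%, 15% and 11.2% with ibrutinib, and those higher 27.6%, 21.6% and 15.1% and 23.7%, 14.5% and 8.5%.

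Of 15 interferon-stimulated genes, 9 were higher and 2 lower with fludarabine for MEC1, 11 and 2 for JVM2, and 2 and 10 for EHEB, with medians of 0.33, 1.18 and −0.48. The corresponding shares of all genes were 21.2% and 22.7%, 23.9% and 23.3%, and 18.4% and 19.2%. SAMHD1, which is not on that list, stood at 1.64, 1.39 and 0.44 in the same comparisons. MX2, an antiviral GTPase gene, fell in all 3 lines, by −0.70, −0.53 and −0.66, whereas OAS3 was at 1.10, 0.74 and −0.38 and IFI44L at 0.35, 1.34 and −0.57. With ibrutinib 12, 13 and 1 of these genes were higher and 1, 0 and 8 lower in MEC1, JVM2 and EHEB, where 23.7%, 14.5% and 8.5% of all genes were higher and 23.9%, 15% and 11.2% lower. With idelalisib 10, 10 and 0 were higher and 1, 1 and 10 lower, beside 27.6%, 21.6% and 15.1% higher and 27.4%, 22.6% and 18.2% lower. Any part of these lists in the results for the 10 genes was not tested.

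The gene with the most similar pattern to a member was sought over the 12 group means, centred within each line, among 10908 genes with enough counts. These correlations are a description, since the points share libraries and the search took the highest value. Pearson's r was 0.992 between RRM2 and DIAPH3, 0.982 between RRM1 and MRPL37, 0.982 between RRM2B and PYHIN1, and 0.964 between DCK and MBD4. For SAMHD1 it was 0.978 with RRP36, for SLC29A1 0.979 with C17orf53, for NT5C2 0.942 with ADAM22 and for SLC29A2 0.855 with ZBTB45. SLC28A3 was too low to be included.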

How the data were processed

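RNA sequencing of ribosomal RNA-depleted total RNA was measured in 36 libraries, which were grouped by sample title. The deposited values are estimated counts per gene symbol, as whole numbers, which the authors made with Trimmomatic, HISAT2 2.1 on GRCh38 and StringTie 1.3.4. The Ensembl release and strand setting were not given in the sources used here. One entry with a blank symbol (0.00384% of counts) was left out.

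Each line was fitted alone on its 12 libraries in edgeR 4.0.16 (R 4.3.3), with TMM normalisation, filterByExpr (minimum count 10, minimum total 15) and the quasi-likelihood F-test. This left 17516, 17508 and 17748 genes in MEC1, JVM2 and EHEB. All 10 members passed the filter in every fit, SLC28A3 in that of JVM2 only through its fludarabine libraries. No value or p-value of its tests involving JVM2 is reported, but it is included in the counts of called genes that involve JVM2. Differences between lines used the 18 DMSO and fludarabine libraries (19286 genes) or the 9 DMSO libraries (17394 genes). Replicate libraries differed by more than counting noise (chi-square per degree of freedom 27.2 to 53.6 over 36 pairs). Counting floors cover counting error only.

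Alternatives were DESeq2 1.42.0, limma-voom 3.58.1, library size scaling, no filter, a mean of at least 1 CPM, fits of only the 6 libraries compared, a joint fit of 36 libraries, and each library left out. Positions and transcript lengths came from GENCODE release 44.

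The members and gene lists were chosen with earlier results of these data known. Named were all members, at most 3 genes per other pathway list (called with fludarabine in all 3 lines, with the largest smallest change) and the most similar gene per member, which for DGUOK is not reported here.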

Additional observations from a re-analysis of the deposited data

Results flagged for a closer look

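The differences of the fludarabine effect between lines that passed the interaction test were these, as differences of log2 fold changes. Between JVM2 and MEC1 they were 1.15 for RRM2B, −1.59 for NT5C2, −0.62 for RRM1 and −2.12 for RRM2. Between EHEB and MEC1 they were 0.89 for RRM2B, −0.99 for NT5C2, −1.27 for SAMHD1, 0.28 for RRM1 and −2.06 for SLC28A3. Between EHEB and JVM2 they were −0.26 for RRM2B, 0.61 for NT5C2, −0.995 for SAMHD1, 0.90 for RRM1 and 2.85 for RRM2. SLC28A3 was left out of the comparisons with JVM2, whose DMSO libraries had no counts of it.

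Some of these calls are fragile. That of RRM1 between EHEB and MEC1 (adjusted p = 0.0324) was lost without EHEB_133, EHEB_142, EHEB_143, MEC1_37, MEC1_38 or MEC1_39, at 0.0530 to 0.0765, without a filter (0.0530) and under library size scaling (0.0713). That of RRM2B between EHEB and JVM2 (adjusted p = 0.0241) was lost without a filter (0.112) and without any of EHEB_133, EHEB_134, EHEB_135, EHEB_142, JVM2_85, JVM2_86, JVM2_87, JVM2_94 and JVM2_95, at 0.0501 to 0.142. That of NT5C2 between EHEB and JVM2 (adjusted p = 0.0488) was lost with limma-voom (0.0542), under library size scaling (0.0750), without a filter (0.0535) and without any of EHEB_133, EHEB_134, EHEB_135, EHEB_142, EHEB_143, EHEB_144, JVM2_86, JVM2_87, JVM2_94 and JVM2_95, at 0.0531 to 0.119. In these differences the line and its exposure time cannot be told apart, and no group is large enough to look for a library far from the others.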

How the results depend on the processing

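Of 165 values of single genes compared across alternatives, 121 were called. Uncalled values of DGUOK, SLC29A1 and SLC29A2 were compared only for fludarabine against DMSO. Uncalled SLC28A3 values were compared only for fludarabine against DMSO or another drug, and its tests involving JVM2 were left out. The set was thus partly chosen by outcome, and its shares do not describe all tests of the 10 genes. Over 1108 alternative values, 1040 kept their direction and side of the threshold, 29 lost a call, 29 gained one and 10 changed sign, and none that changed sign was called. With a library left out, 1009 of 1104 values kept both, 79 lost a call, 9 gained one and 7 changed sign. Library size scaling turned DGUOK with fludarabine to 0.0827, 0.0445 and 0.0230 in MEC1, JVM2 and EHEB, SLC29A2 with fludarabine in MEC1 to 0.0299, NT5C2 against ibrutinib in MEC1 to 0.0650, DCK against idelalisib in JVM2 to 0.0135, RRM2B and DCK with ibrutinib in EHEB to 0.0360 and 0.0616 and NT5C2 with fludarabine in EHEB to 0.0871. The stricter filter turned the last to 0.0071.

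With libraries left out, values that changed sign ranged from −0.153 to 0.224 for NT5C2 against idelalisib in MEC1, from −0.0762 to 0.0032 for NT5C2, from −0.0552 to 0.515 for RRM2 and from −0.244 to 0.0576 for SLC29A2 with fludarabine in EHEB. They ranged from −0.100 to 0.0112 for the DCK difference between JVM2 and MEC1 and from −0.241 to 0.0837 for NT5C2 in DMSO-treated JVM2 against MEC1. Counts of called genes moved by over 1.5 times in EHEB only: with fludarabine from 4 to 2 without a filter and to 2 to 3 with a library left out (2 without EHEB_135 or EHEB_142), with ibrutinib from 2 to 4 in the fit of 6 libraries and to 1 to 2 (1 without EHEB_134 or EHEB_281), and with idelalisib from 5 to 3 in that fit and to 3 to 5 (3 without EHEB_133 or EHEB_134). The cause was not tested. No paired analysis was possible because the groups share no library numbers. Depth limits SLC28A3, which had 0 counts in 3 libraries, and SLC29A2, with 67 to 389.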
